A study of Mus musculus with 12 samples.

Results

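Ifng, Il21, Il10 and Il2, genes of 4 secreted signals of T cells, were described in immune cells of mouse liver. They are the rows of 4 symbols among 24319 entries in the expression table, and were chosen by their expression in these same libraries, as effector and helper T cell cytokines seen to be high in mice given polyIC and a PD-L1 antibody together. Their levels with the combination are therefore given as a description, with no test. The choice did not hold for Il2, which was not higher with the combination than in any other group, while Ifng, Il21 and Il10 were higher in every combination library than in all 9 other libraries. C57BL/6 mice of all 4 groups carried the human oncogenes c-Myc and N-ras in the liver after hydrodynamic transfection on day 0, a rapid large-volume injection that carries DNA into hepatocytes. Combination mice received 4 mg/kg of polyIC, which is made double-stranded RNA that immune sensors read as viral, on days 14, 16, 18, 20 and 22, and 200 µg of PD-L1 antibody on days 17, 19 and 21. The polyIC group received the same polyIC doses with 200 µg of IgG, the antiPDL1 group PBS with 200 µg of PD-L1 antibody, and the control group PBS with 200 µg of IgG, each on those days. Livers were taken on day 24 by the protocol, although the time point label reads day 22, and cells carrying CD45, a surface protein of nearly all leukocytes, were pulled out with antibody and magnetic beads. Each group had 3 libraries, numbered 0, 1 and 2, and nothing states that they came from separate mice, so the spread between them may be technical.

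Interferon gamma, the product of Ifng, is made by activated T cells and NK cells and acts through JAK kinases and STAT factors to switch on antigen presentation genes, chemokines and guanylate-binding proteins. IL-21, made by follicular helper and other activated CD4 T cells, acts mainly through STAT3, and IL-2, the growth factor of T cells, mainly through STAT5, by receptors that share the common gamma chain. IL-10 damps macrophages and dendritic cells through STAT3, and can come from regulatory, effector and exhausted T cells, from B cells and from macrophages, Kupffer cells of the liver among them. PD-L1 binds PD-1 on T cells and restrains their signalling, so a PD-L1 antibody releases that restraint.

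Values are FPKM, fragments scaled by transcript length and by library size, so levels can be set side by side between genes. FPKM totals were 476111 to 677535 per library. A single entry, Mir6236, took 16.19 to 20.55% of the total in the combination, 15.79 to 19.32% in polyIC, 7.59 to 11.09% in antiPDL1 and 4.97 to 15.71% in control, with no overlap of combination and control, and its part in the results was not tested. Read counts are not in the table, and the relative depth, read from the step size of low values, was 0.635 to 1 of the deepest library in the combination, 0.54 to 0.56 in polyIC, 0.471 to 0.749 in antiPDL1 and 0.703 to 0.864 in control. In 3 libraries the cell markers stood apart from their group. The summed Kupffer cell markers were 1240 FPKM in control replicate 2, against 5341 and 5900 FPKM in the other controls, and its summed T cell markers were the highest of the controls, at 949 FPKM. The library antiPDL1 replicate 2 had 4444 FPKM of Kupffer cell markers, against 642 and 2192 FPKM in its group's other libraries. In antiPDL1 replicate 0 the summed T cell markers were 1844 FPKM, against 882 and 691 FPKM in the other antiPDL1 libraries, and its Il10 was also the highest of that group. The first 2 of these libraries, called set-apart below, were left out together, a step chosen after the data were seen, and antiPDL1 replicate 0 was left out alone.

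Il21 and Il2 lie next to each other on chromosome 3 with no protein-coding gene between them, and T cell receptor signalling is known to reach both, and Ifng, through NFAT, whose core motif is GGAAA. The 250 bases before the transcript start, from RefSeq on GRCm38.p6 (the expression values were made on mm9), are shown because 2 of the 3 windows belong to these neighbours, which had unlike levels in the combination. Capitals mark GGAAA on either strand, which reads TTTCC where the motif is on the other strand. The windows are chr10:118440796-118441045 on the plus strand for Ifng, chr3:37232637-37232886 on the minus strand for Il21 and chr3:37125955-37126204 on the minus strand for Il2, each written 5′ to 3′ along its gene.
Ifng: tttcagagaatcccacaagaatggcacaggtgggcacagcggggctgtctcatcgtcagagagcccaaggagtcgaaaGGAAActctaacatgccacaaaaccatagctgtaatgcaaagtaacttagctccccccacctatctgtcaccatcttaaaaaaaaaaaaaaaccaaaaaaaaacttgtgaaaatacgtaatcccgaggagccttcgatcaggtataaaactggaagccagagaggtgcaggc
Il21: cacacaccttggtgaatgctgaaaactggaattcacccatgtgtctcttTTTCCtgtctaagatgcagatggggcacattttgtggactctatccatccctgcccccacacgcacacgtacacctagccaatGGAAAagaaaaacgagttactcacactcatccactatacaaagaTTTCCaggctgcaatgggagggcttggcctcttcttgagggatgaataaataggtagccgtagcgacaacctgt
Il2: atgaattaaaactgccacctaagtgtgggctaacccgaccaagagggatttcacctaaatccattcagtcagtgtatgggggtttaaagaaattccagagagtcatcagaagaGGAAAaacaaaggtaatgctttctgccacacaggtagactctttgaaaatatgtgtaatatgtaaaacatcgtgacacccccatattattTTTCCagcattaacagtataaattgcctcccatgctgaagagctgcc
The motif stood 1 time in the Ifng window, 3 times in that of Il21 and 2 times in that of Il2, and 55.6% of all 32851 windows of this length hold it. The letters TATAAA, searched on both strands and held by 12.4% of windows, stood 1 time each in the Ifng and Il2 windows and were not in that of Il21. The AP-1 pattern TGANTCA, in 6.75% of windows, was in none of the 3 windows, and the STAT pattern TTCNNNGAA, in 7.02%, stood 1 time in that of Ifng. A match is only a run of letters, and no window was at hand for Il10.

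Ifng had the highest level of the 4 genes. It stood at 82.6, 151 and 135 FPKM in the combination, 35.2, 34.8 and 21.6 FPKM in polyIC, 37.8, 37.2 and 19.1 FPKM in antiPDL1 and 8.52, 13.6 and 16.8 FPKM in control. The combination libraries lay above every other library, the 2 single-agent groups overlapped each other, and both lay above all controls. Means were 123 ± 35.9 FPKM in the combination, 30.5 ± 7.78 FPKM in polyIC, 31.4 ± 10.7 FPKM in antiPDL1 and 13.0 ± 4.17 FPKM in control (SD, n = 3 each). The ratio of combination to control means was 9.48, and the log2 change, on log2(FPKM + 1) as in all that follows, was 3.15 (SE 0.34). In bulk samples such a difference cannot be split into more cells that transcribe the gene and more RNA per cell.

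Il21 was the gene nearest to silence in control. It stood at 9.96, 24.2 and 19.9 FPKM in the combination, 2.95, 1.52 and 1.64 FPKM in polyIC, 2.88, 1.27 and 1.53 FPKM in antiPDL1 and 0.163, 0.668 and 0.285 FPKM in control. As with Ifng, the combination was above every other library, and the single-agent groups overlapped each other and were clear of the controls. The combination mean was 18.0 ± 7.32 FPKM, against 0.372 ± 0.263 FPKM in control (SD, n = 3 each). Their ratio of 48.5 rests on control values under 1 FPKM, and the log2 change was 3.73 (SE 0.32).

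Il10 was read at 30.9, 79.2 and 42.6 FPKM in the combination, 8.05, 4.94 and 7.63 FPKM in polyIC, 8.24, 2.16 and 2.44 FPKM in antiPDL1 and 2.17, 5.29 and 0.924 FPKM in control. Here the combination alone was set off, and the other 3 groups overlapped. Combination libraries averaged 50.9 ± 25.2 FPKM and controls 2.79 ± 2.25 FPKM (SD, n = 3 each), a ratio of 18.2 and a log2 change of 3.84 (SE 0.50). In all, 324 of the 11978 genes tested, 2.7%, had every combination library above all 9 others, and 3 of the 4 cytokine genes were among them.

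Il2 was at the edge of detection in every group. It stood at 0.257, 0.365 and 0.824 FPKM in the combination, 0.652, 1.13 and 0.879 FPKM in polyIC, 0.981, 0.805 and 1.92 FPKM in antiPDL1 and 0.405, 0.649 and 0.813 FPKM in control. The combination mean of 0.482 ± 0.301 FPKM was the lowest of the 4 groups. The combination overlapped every other group through replicate 2, while its replicates 0 and 1 lay under all other libraries. With 2 of 12 libraries at 1 FPKM or more it missed the filter of 3 libraries and was not tested. Its log2 change from control to combination was -0.14 (SE 0.22).

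**Figure D1:**
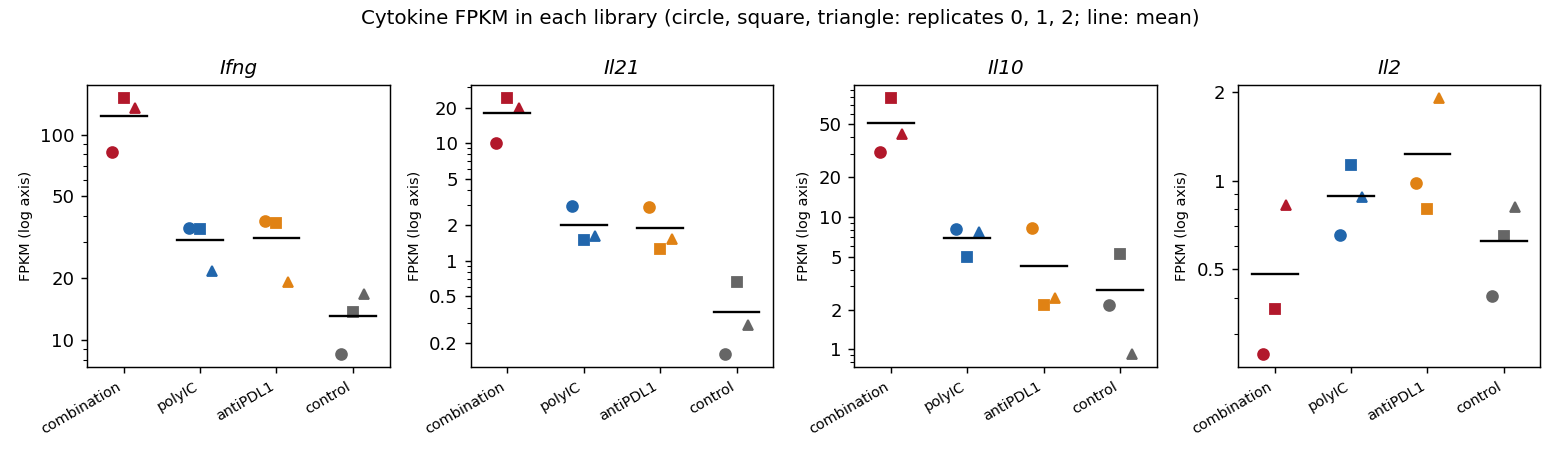
FPKM of Ifng, Il21, Il10 and Il2 (log axes, a separate scale for each gene) in each library of the combination, polyIC, antiPDL1 and control groups. Marker shapes stand for replicates 0, 1 and 2 and lines for group means. The combination libraries lie above all others for Ifng, Il21 and Il10, and for Il2 the combination mean of 0.482 FPKM is the lowest.

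The 3 higher genes did not vary together to the same degree within groups. Across all 12 libraries Pearson's r of log2 values was 0.96 for Il21 with Ifng, 0.96 for Il21 with Il10 and 0.88 for Ifng with Il10, largely through the group means that they share. With each group's mean taken out, r was 0.59 for Ifng with Il21, 0.26 for Ifng with Il10 and 0.78 for Il21 with Il10. Without the 2 set-apart libraries these were 0.74, 0.47 and 0.86, and without antiPDL1 replicate 0 they were 0.54, 0.10 and 0.71. Replicate 1 was the highest combination library for all 3, and replicate 0 the lowest. Il2 had r from -0.46 to -0.27 with the others. These are descriptions of 12 libraries that share depth and cell make-up.

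What polyIC alone did to the cytokine genes was asked against control libraries that also stood behind their choice. Differences were tested with limma in 1 fit over the 12 libraries, with p adjusted over 11978 genes by the Benjamini-Hochberg method. Of the 3 genes tested, 0 passed at 0.05, against 2.46% of all genes that passed as higher, while 3 had an unadjusted p under 0.05, as did 22.2% of all genes in either direction. Ifng was higher in polyIC by 1.19 (SE 0.34, adjusted p = 0.0771 in limma) and Il21 by 1.13 (SE 0.32, adjusted p = 0.0756 in limma). In both, 3 of 3 polyIC libraries were above every control, which holds for 16.2% of all genes. Il10 differed by 1.20 (SE 0.50, adjusted p = 0.191 in limma), with overlap. For Ifng the side of the threshold turned on a library: without control replicate 2 the change was 1.39 (adjusted p = 0.0314 in limma), and without antiPDL1 replicate 2 as well it was 1.39 (adjusted p = 0.0102). For Il21 it was 1.09 (adjusted p = 0.0595) with both left out, and 1.13 (adjusted p = 0.0478) without combination replicate 0. Other libraries moved it the other way: with 1 left out the adjusted p in limma ran from 0.0314 to 0.285 for Ifng and from 0.0478 to 0.299 for Il21.

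The same question for the PD-L1 antibody alone gave close estimates for Ifng and Il21. Ifng was higher than in control by 1.20 (SE 0.34, adjusted p = 0.185 in limma) and Il21 by 1.05 (SE 0.32, adjusted p = 0.199 in limma), with 3 of 3 antiPDL1 libraries above every control in both. Such separation upward was seen in 4.61% of all genes. Il10 differed by 0.46 (SE 0.50, adjusted p = 0.630 in limma), and -0.03 without antiPDL1 replicate 0, the library with 8.24 FPKM. Again 0 of 3 genes passed, beside 0.00835% of genes called higher, and 2 had an unadjusted p under 0.05, as did 17.0% of all genes. Ifng passed without antiPDL1 replicate 2, at 1.51 (adjusted p = 0.0142 in limma), and without both set-apart libraries at 1.71 (adjusted p = 0.00579). Il21 had a change of 1.09 with both left out (adjusted p = 0.0724 in limma). With 1 library left out the adjusted p ran from 0.0142 to 0.666 for Ifng and from 0.0582 to 0.681 for Il21.

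No difference between the single agents was seen in these genes, where 0 of 3 passed in limma at either an adjusted or an unadjusted p under 0.05, against 0.15% of all genes at the adjusted and 10.1% at the unadjusted one. The polyIC minus antiPDL1 change was -0.01 for Ifng, with a 95% interval from -0.75 to 0.73 and adjusted p = 0.997 in limma. For Il21 it was 0.08 (-0.62 to 0.78, adjusted p = 0.958) and for Il10 0.73 (-0.37 to 1.84, adjusted p = 0.683). The intervals still allow differences of over 0.7 on the log2 scale. For Il2, which was not tested, the 2 single-agent groups were the highest, at 0.887 ± 0.239 FPKM in polyIC and 1.23 ± 0.598 FPKM in antiPDL1 (SD, n = 3 each), against 0.622 ± 0.206 FPKM in control.

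Non-additivity was read on 2 scales, since agents that add in FPKM do not add in log2. In FPKM, the control mean plus both single-agent changes came to 48.9 for Ifng, 3.56 for Il21 and 8.36 for Il10. The combination means of 123, 18.0 and 50.9 FPKM exceeded these sums by 74.1 (SE 22.2), 14.5 (SE 4.29) and 42.5 (SE 14.8) FPKM. On the fold scale the expectation is the control mean times both single-agent folds, 73.9 FPKM for Ifng, 10.4 for Il21 and 10.5 for Il10. The combination was 1.67 times that value for Ifng, 1.74 times for Il21 and 4.84 times for Il10. With each library left out in turn these ratios ran from 1.39 to 1.95, from 1.05 to 2.35 and from 2.67 to 8.99. Without the 2 set-apart libraries the ratios were 1.19 for Ifng, 1.77 for Il21 and 5.31 for Il10, and without antiPDL1 replicate 0 they were 1.86, 2.35 and 8.99. Il10 had the highest ratio in each case. Il2, untested and near the floor, stood at 0.482 FPKM with the combination against a sum of 1.50 FPKM, a difference that was not resolved at such levels.

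The log2 interaction, combination minus polyIC minus antiPDL1 plus control, was 0.77 (SE 0.48) for Ifng, 1.54 (SE 0.45) for Il21, 2.17 (SE 0.71) for Il10 and -0.80 (SE 0.31) for Il2, each a description. Without control replicate 2 and antiPDL1 replicate 2 it was 0.26 for Ifng, 1.50 for Il21, 2.36 for Il10 and -0.67 for Il2. Without antiPDL1 replicate 0 it was 0.93 for Ifng, 1.77 for Il21, 2.67 for Il10 and -0.87 for Il2. The Il2 values rest on levels under 2 FPKM, where differences were not resolved. The Il21 value depended on the scale, and was 0.91 with a pseudocount of 0.1 in place of 1. Over all genes 0.0167% passed for this contrast, which are Mir760 and Orm2, named here after their values were seen. Against the single agents themselves the combination was higher by 1.96 over polyIC and 1.95 over antiPDL1 for Ifng (SE 0.34 each), by 2.60 and 2.67 for Il21 (SE 0.32 each), and by 2.64 and 3.37 for Il10 (SE 0.50 each). Separation of the groups upward, which the 3 genes show in both, was found in 13.3% of all genes against polyIC, 8.29% against antiPDL1 and 25.6% against control.

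**Figure D2:**
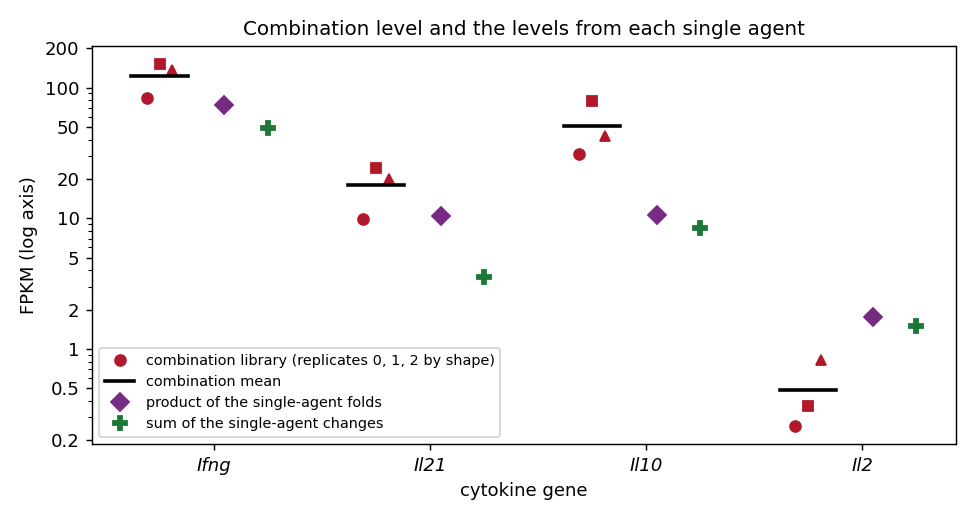
FPKM (log axis) of the 4 cytokine genes in the 3 combination libraries, with their mean, beside the product of the single-agent folds (diamonds) and the sum of the single-agent changes (plus signs), both built on the control mean. For Ifng, Il21 and Il10 the combination mean lies above both marks. For Il2 it lies below both, near the floor, where differences were not resolved.

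T cell markers moved with the cytokine genes. All 10 pan T cell markers, such as Cd3e of the T cell receptor complex, rose with the combination against control in limma at a median of 2.26, where 13.1% of all genes rose and the median of all genes was 0.05. Summed, they ran from 2344 to 3095 FPKM in the combination, 1372 to 1956 FPKM in polyIC, 691 to 1844 FPKM in antiPDL1 and 327 to 949 FPKM in control. Set against the mean of these markers in each library, Ifng was 0.90 higher in the combination than in control, Il21 1.48 and Il10 1.59, while the Il2 difference was -2.39, all on the log2 scale. Il2 itself, near the floor, changed by -0.14. Its difference here therefore mainly mirrors the marker mean, which was 5.52 in control and 7.76 in the combination, and does not show a fall of Il2. For all 4 genes no combination library overlapped a control on this measure, and the share of all genes so separated was not computed. For Ifng the combination overlapped antiPDL1, with -1.38 in combination replicate 0 and -0.94 in antiPDL1 replicate 1. With Cd3e alone as the marker, Ifng and Il10 in the combination overlapped control. The relative interaction was 0.90 (SE 0.47) for Ifng, 1.67 (SE 0.59) for Il21 and 2.30 (SE 0.87) for Il10. Without the 2 set-apart libraries the values against control were 0.74, 1.08 and 0.83, and the relative interactions 1.04, 2.29 and 3.14, for Ifng, Il21 and Il10 in turn.

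How far the cytokine genes stood above their possible source depended on the marker. Cd4, the coreceptor of helper T cells that some mouse dendritic cells also carry, was 83.4, 127 and 89.0 FPKM in the combination, 39.8, 40.2 and 36.9 FPKM in polyIC, 43.1, 35.3 and 44.2 FPKM in antiPDL1 and 26.1, 42.5 and 61.8 FPKM in control. Like Ifng, Il21 and Il10, it was higher in every combination library than in all others. It rose by 1.24 (SE 0.27, adjusted p = 0.00769 in limma) against control and by 1.31 (SE 0.27, adjusted p = 0.0443) against polyIC, where 0.159% of all genes rose, with 3 of 3 libraries higher in both. The call against polyIC was lost without any 1 of 7 libraries, namely control replicate 1 and each polyIC and combination library (adjusted p up to 0.189). Its interaction was 1.32 (SE 0.38, adjusted p = 0.999 in limma). Cd40lg, the other gene of the CD4 marker list, did not rise with Cd4 and was named after its values were seen. Only 1 of these 2 genes had a change above 0 between combination and control, at a median of 0.38. Relative to Cd4 alone, a marker chosen after the data were seen, the combination minus control values were 1.91 for Ifng, 2.49 for Il21 and 2.60 for Il10, and the interactions were -0.55 (SE 0.47), 0.22 (SE 0.50) and 0.85 (SE 0.89). Relative to Cd8a and Cd8b1, the CD8 coreceptor genes, the combination stood 0.34 over control for Ifng, 0.92 for Il21 and 1.03 for Il10, with overlap for each. The interactions on that measure were 1.98 (SE 0.75) for Ifng, 2.76 (SE 0.80) for Il21 and 3.39 (SE 1.00) for Il10, so that their size and, for Ifng, their sign turned on the marker.

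**Figure D3:**
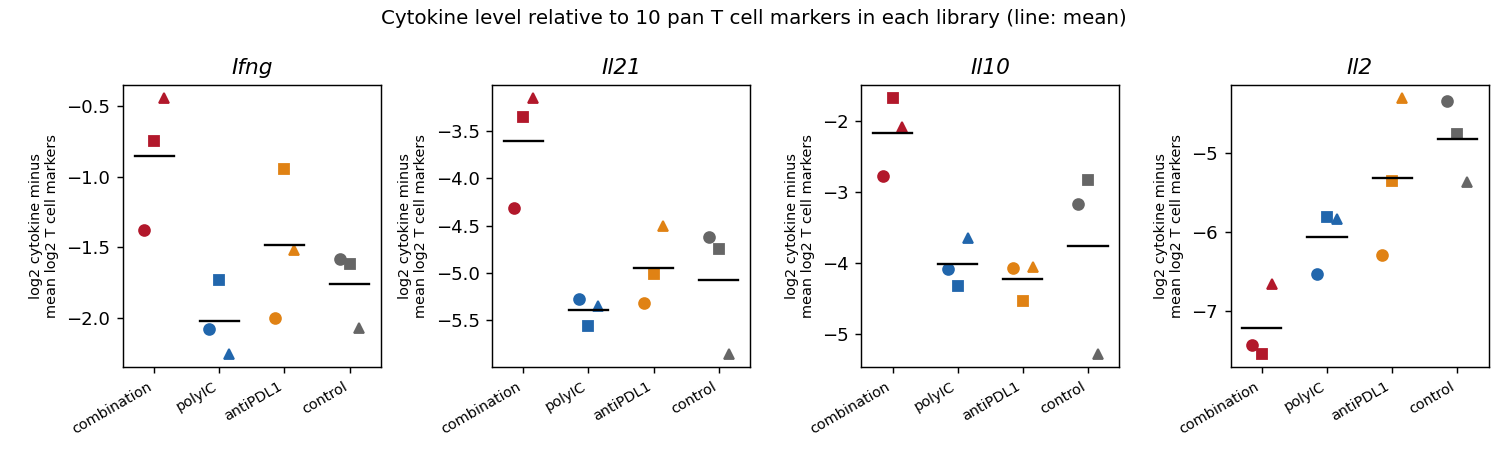
Log2(FPKM + 1) of each cytokine gene minus the mean log2(FPKM + 1) of 10 pan T cell markers, in each library of the combination, polyIC, antiPDL1 and control groups, with group means as lines. Ifng, Il21 and Il10 lie higher in the combination than in control, by 0.90, 1.48 and 1.59. Il2, near the floor, lies lower mainly because the markers are higher.

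Other possible sources did not share one pattern. Foxp3, which defines regulatory T cells, was 14.4, 5.34 and 8.50 FPKM in the combination, against 0.958, 1.55 and 2.55 FPKM in control, and rose by 1.90 (SE 0.33, adjusted p = 0.00338 in limma, 3 of 3 libraries higher). It overlapped polyIC, at 9.54, 6.51 and 7.57 FPKM. With polyIC alone Foxp3 rose by 1.75 (adjusted p = 0.0188 in limma), a call lost without some libraries (adjusted p up to 0.104). Of the 5 regulatory T cell genes 4 rose with the combination against control and 0 fell, where 13.1% of all genes rose. Of 7 follicular helper genes 4 rose and 0 fell, but Cxcr5, their homing receptor, which B cells also express, averaged 12.2 ± 1.33 FPKM in the combination and 28.3 ± 21.9 FPKM in control (log2 change -0.92, SE 0.42, adjusted p = 0.115 in limma). NK cell markers, another source of interferon gamma, had 0 of 6 past the threshold in either direction in limma against control. Their sums ran from 110 to 249 FPKM in the combination, 395 to 714 FPKM in polyIC, 103 to 245 FPKM in antiPDL1 and 116 to 258 FPKM in control. B cell markers fell in 6 of 6 and Kupffer cell markers in 4 of 5, among 16.3% of all genes that fell, with Kupffer sums of 121 to 296 FPKM in the combination and 1240 to 5900 FPKM in control. Hepatocyte markers, which mark RNA of cells that should not carry CD45, fell in 7 of 7, with sums of 115 to 210 FPKM in the combination and 802 to 2551 FPKM in control. No listed marker was at 0 in any library other than Cd5l, a failed estimate in control, and the part these shifts had in the cytokine levels was not tested.

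**Figure D4:**
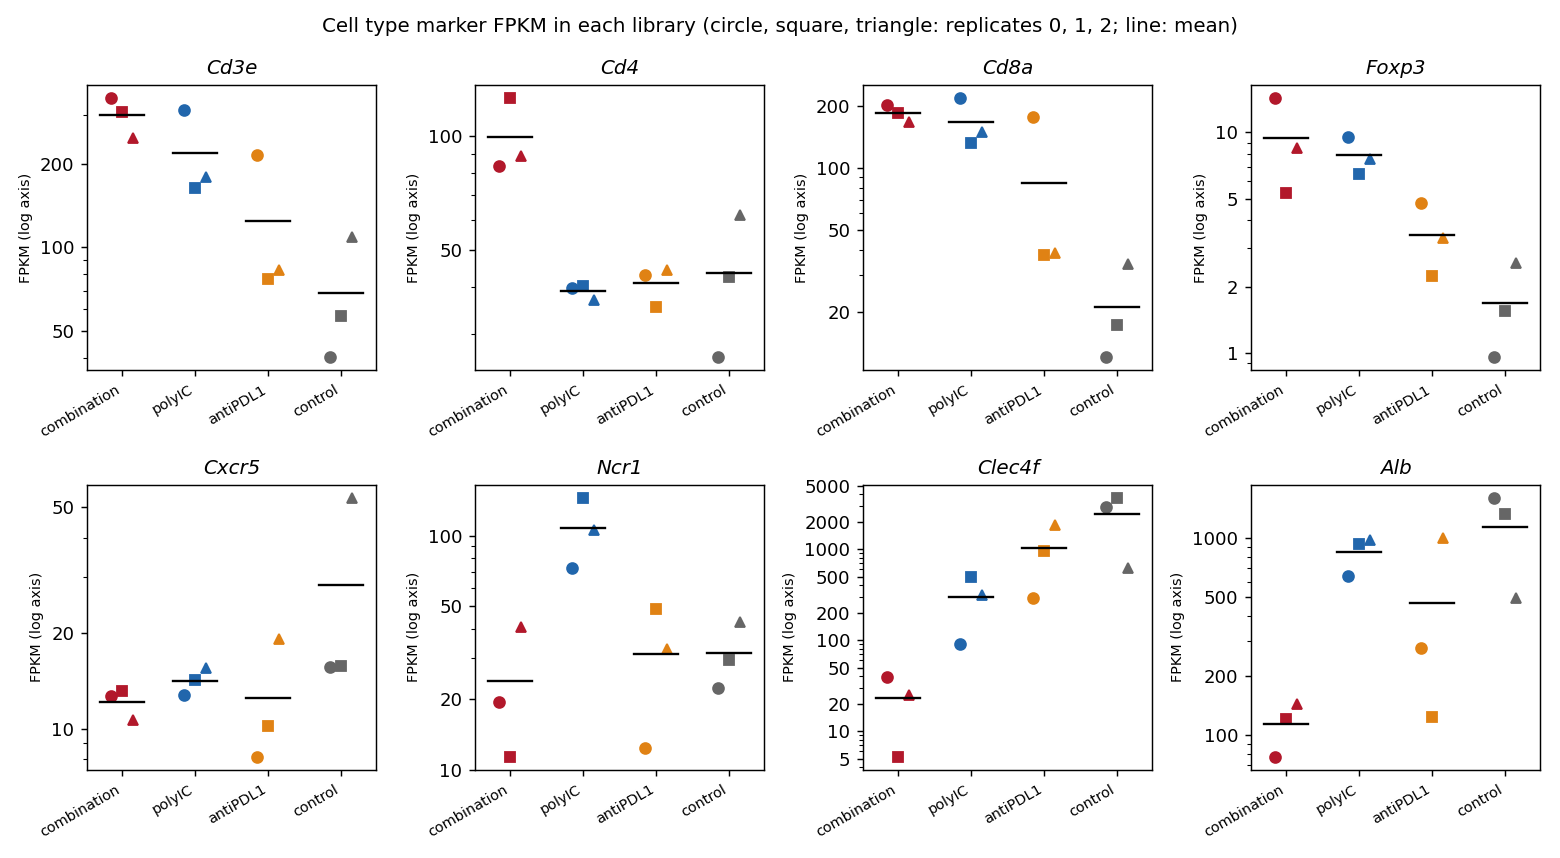
FPKM (log axes) of single cell type markers in each library of the 4 groups, with group means as lines: T cells (Cd3e, Cd4, Cd8a), regulatory T cells (Foxp3), follicular helper and B cells (Cxcr5), NK cells (Ncr1), Kupffer cells (Clec4f) and hepatocytes (Alb). Cd4 is higher in every combination library than in all 9 others, while Clec4f is lowest there.

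Of the 8 receptor genes, 3 rose and 1 fell with the combination against control in limma, at a median of 0.00. Over all genes 13.1% rose and 16.3% fell. Il21r, the specific chain for IL-21, had 104, 129 and 87.3 FPKM in the combination, against 23.4, 30.1 and 53.0 FPKM in control, and rose by 1.62 (SE 0.37, adjusted p = 0.00972, 3 of 3 libraries higher). The shared beta and gamma chains of the IL-2 receptor, Il2rb and Il2rg, rose by 1.04 (adjusted p = 0.0386) and 0.76 (adjusted p = 0.0368). Il10rb, the common second chain of the IL-10 family receptors, fell by 0.71 (adjusted p = 0.022). Il10ra had a change of 0.32, Ifngr1 of -0.31, Ifngr2 of -0.36 and Il2ra, the high-affinity IL-2 chain that activated and regulatory T cells carry, of -0.34, all short of the threshold. Without control replicate 0, control replicate 1, combination replicate 1 or combination replicate 2 the count of 4 came down to 1, and without combination replicate 0 or any 1 polyIC library to 2, and the calls of Il2rb and Il2rg were lost in all 8 cases (adjusted p up to 0.147). Without both set-apart libraries 3 rose and 3 fell. Against polyIC, where 0.159% of all genes rose, and against antiPDL1, where 0.1% rose, 0 of 8 passed in limma.

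Among 13 JAK, STAT and SOCS genes, 4 rose and 1 fell, beside 13.1% and 16.3% of all genes. Socs3, a feedback inhibitor switched on by STAT3, stood at 33.7, 67.4 and 34.7 FPKM in the combination, 9.77, 13.9 and 6.49 FPKM in polyIC, 28.6, 29.4 and 8.07 FPKM in antiPDL1 and 8.05, 11.5 and 11.1 FPKM in control. It rose by 1.98 against control (SE 0.45, adjusted p = 0.0091 in limma, 3 of 3 libraries higher). Jak3, the kinase that sits on the common gamma chain, rose by 1.41 and Stat3 by 0.72, and Socs2 fell by 1.18 (adjusted p from 0.00506 to 0.0264 in limma). Stat3 was named after its values were seen. Its call was lost without control replicate 0, control replicate 1, combination replicate 0 or combination replicate 1 (adjusted p up to 0.0955). The 4 that rose came down to 2 in each of these 4 cases, and with both set-apart libraries left out 6 rose and 1 fell.

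Interferon gamma targets were also higher with the combination than in control. Of 20 listed genes 18 were tested, since Cd74 was a failed estimate and Ido1 stayed under the filter. With the combination against control 10 of the 18 rose and 0 fell, at a median of 1.12, beside 13.1% and 16.3% of all genes. Gbp2, a guanylate-binding protein of antimicrobial defence, had 357, 411 and 317 FPKM in the combination, 118, 91.9 and 77.9 FPKM in polyIC, 421, 488 and 85.7 FPKM in antiPDL1 and 66.6, 103 and 61.6 FPKM in control. It rose by 2.25 (SE 0.52, adjusted p = 0.0102 in limma). Cxcl9 and Cxcl10, chemokines that draw CXCR3-bearing T cells, rose by 2.17 and 1.93 and the GTPase gene Iigp1 by 1.96 (adjusted p from 0.00571 to 0.0227), each in 3 of 3 libraries. Cxcl10 lost its call without control replicate 0, combination replicate 1 or combination replicate 2 (adjusted p up to 0.082). The count of 10 became 3 without control replicate 0, 4 without combination replicate 1, 6 without control replicate 1, combination replicate 0 or combination replicate 2, and 13 without both set-apart libraries. Against polyIC 0 of 18 passed in limma, at a median of 0.92, but 9 rose without antiPDL1 replicate 2 and 12 without both. Against antiPDL1 0 of 18 passed, at a median of 0.21, and of -0.38 without antiPDL1 replicate 2.

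In the single-agent groups Ifng and its target list did not go in step. Ifng means were 30.5 FPKM in polyIC and 31.4 FPKM in antiPDL1, whereas the mean log2 level of the 18 targets was 6.67, 6.65 and 6.26 in polyIC and 7.83, 8.01 and 6.46 in antiPDL1. It was 7.62, 7.55 and 7.46 in the combination and 6.32, 6.61 and 6.35 in control. Replicates 0 and 1 of antiPDL1 were above every combination library on this measure although their Ifng was 37.8 and 37.2 FPKM, and replicate 2 lay within the controls. The median change of the list was 0.13 for polyIC minus control, 0.94 for antiPDL1 minus control and -0.89 for polyIC minus antiPDL1, where 18 of 18 genes were lower in polyIC. In limma 0 of 18 passed in each of these 3 comparisons. That turned on antiPDL1 replicate 2 for the last 2 of them: without it 16 of 18 rose in antiPDL1 against control, at a median of 1.46, and 15 of 18 were called lower in polyIC than in antiPDL1, at a median of -1.29. Without both set-apart libraries the counts were 17 and 17, and for polyIC minus control 0. For the interaction the list's median was -0.02, beside 0.77 for Ifng and 0.03 over all genes, and -0.53 without antiPDL1 replicate 2.

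**Figure D5:**
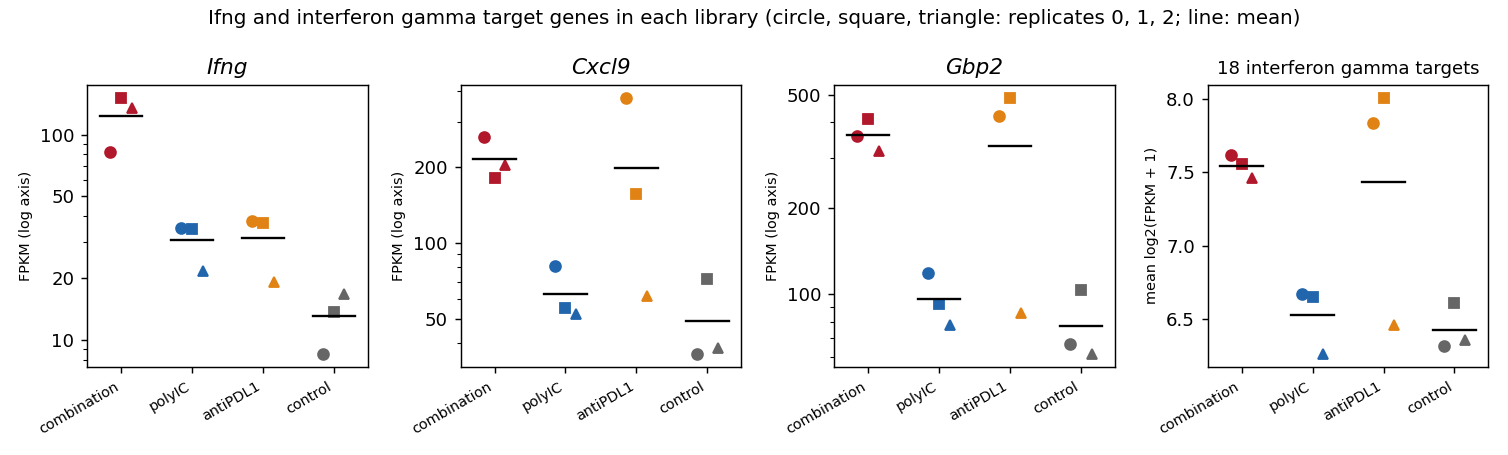
FPKM (log axes) of Ifng, Cxcl9 and Gbp2, and the mean log2(FPKM + 1) of 18 interferon gamma targets, in each library of the 4 groups, with group means as lines. Replicates 0 and 1 of antiPDL1 reach 7.83 and 8.01 for the target mean, above the 3 combination libraries, while their Ifng is below all of them.

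IL-10 targets, genes that IL-10 raises in macrophages, did not move one way. Of 7 genes tested 2 rose and 1 fell with the combination against control. Over all genes 13.1% rose and 16.3% fell, so the count that fell is near that share. Nfil3 and Bcl3, nuclear regulators of inflammatory genes, rose by 1.89 (SE 0.35, adjusted p = 0.00449 in limma) and 1.12 (SE 0.35, adjusted p = 0.0329). Nfil3 also rose with polyIC alone, by 1.49 (adjusted p = 0.045 in limma), a call lost without any 1 of 8 libraries (adjusted p up to 0.209). The call of Bcl3 was lost without any 1 of the controls, combination replicate 0 or combination replicate 1 (adjusted p up to 0.12). Cd163, the haemoglobin scavenger receptor of macrophages, was 3.43, 0.867 and 1.13 FPKM in the combination, against 276, 188 and 51.2 FPKM in control, and fell by 5.75 (SE 0.90, adjusted p = 0.00249), beside the fall of the Kupffer cell markers.

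Transcription factors of T cell cytokine genes rose with the combination against control in 6 of 14 tested and fell in 0, beside 13.1% and 16.3% of all genes. Eomes, a T-box factor that can drive Ifng in CD8 T cells, was 38.3, 37.7 and 27.6 FPKM in the combination, 22.7, 21.5 and 13.9 FPKM in polyIC, 17.7, 6.73 and 6.22 FPKM in antiPDL1 and 2.26, 4.77 and 5.97 FPKM in control. It rose by 2.79 against control (SE 0.38, adjusted p = 0.00165 in limma) and by 1.97 with polyIC alone (SE 0.38, adjusted p = 0.0197), a call lost without control or polyIC replicate 0 or 1 (adjusted p up to 0.107). Batf, an AP-1 family factor of activated T cells, rose by 2.20, Prdm1, which encodes Blimp-1, by 1.81 and Ikzf3, which encodes Aiolos, by 1.63 (adjusted p from 0.00303 to 0.00666 in limma, each in 3 of 3 libraries). Ikzf3 also rose with polyIC alone, by 1.48 (adjusted p = 0.032 in limma), a call lost without any 1 of 6 libraries (adjusted p up to 0.168). Maf and Bcl6 did not pass. Maf, a factor of T cells that macrophages also express, was 67.8 ± 18.4 FPKM in the combination and 83.6 ± 34.9 FPKM in control, and Bcl6, the follicular helper factor, was 14.2 ± 2.70 FPKM in the combination and 15.2 ± 3.27 FPKM in control. Both were named after their values were seen. Without both set-apart libraries 9 factors rose and 1 fell, and with 1 library left out 4 to 9 rose, 4 being the count without control or combination replicate 0 or 1 and 9 without control replicate 2.

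Cytokines of antigen-presenting cells that act before these genes were not higher. Of 6 tested, 0 rose and 3 fell, beside 13.1% and 16.3% of all genes. Il12b, a subunit of IL-12 and an inducer of Ifng, was 1.24, 0.464 and 2.21 FPKM in the combination, against 3.44, 7.06 and 5.61 FPKM in control, and fell by 1.50 (SE 0.31, adjusted p = 0.00683 in limma). It fell by 1.49 with polyIC alone (adjusted p = 0.0295), a call lost without control replicate 1, polyIC replicate 0 or polyIC replicate 2 (adjusted p up to 0.143). Il6 fell by 1.13 with the combination (adjusted p = 0.0108 in limma), with 3 of 3 libraries lower. Il15 fell by 0.95 (adjusted p = 0.0347), with overlap, and lost its call without control or combination replicate 0 or 1 (adjusted p up to 0.122). Without both set-apart libraries 1 of the 6 rose and 5 fell, and with 1 library left out 2 to 5 fell, 5 of them without control replicate 2 and 2 without control replicate 0, control replicate 1 or combination replicate 1.

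Other T and NK cell cytokines did not rise as a set. Of 17 listed, 10 were tested, and 3 rose and 2 fell, beside 13.1% and 16.3% of all genes. Il3, Il9 and Il22 were listed at 0 in all 12 libraries. The 3 that rose were the chemokine genes Ccl3, Ccl4 and Ccl5, with changes of 3.85, 4.00 and 3.57 (adjusted p from 0.00208 to 0.00352 in limma, each in 3 of 3 libraries). Ccl3 and Ccl5 also rose with polyIC alone, by 2.68 (adjusted p = 0.0457 in limma) and 3.15 (adjusted p = 0.0135). Both calls were lost without some libraries (adjusted p up to 0.205 for Ccl3 and 0.0734 for Ccl5). Lta, which encodes lymphotoxin alpha, fell by 0.66 (adjusted p = 0.0338). Csf2, which encodes GM-CSF, stayed under 1 FPKM in every combination library and fell by 0.61 (adjusted p = 0.0365), a gene named after its values were seen. Neither passed without both set-apart libraries (adjusted p = 0.0543 for Lta and 0.0525 for Csf2), and each lost its call with any 1 of 5 libraries left out. Of 10 genes of T cell activation 7 rose and 0 fell, where 13.1% of all genes rose. They were led by Pdcd1, which encodes PD-1, at 5.19, Ctla4 at 4.64, Tnfrsf4, which encodes OX40, at 3.77 and Tnfrsf9, which encodes 4-1BB, at 2.91. The count was 5 without control replicate 0 and 8 without both set-apart libraries. Pdcd1, Ctla4 and Icos also stand in the follicular helper or regulatory T cell lists, so these counts are not separate. Tnfrsf4 also rose against polyIC, by 1.96 (SE 0.41, adjusted p = 0.0467 in limma), a call lost without any 1 of the same 7 libraries as for Cd4 (adjusted p up to 0.211).

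The genes most like each cytokine gene were ranked by Pearson's r of log2 values over the 12 libraries, among 11244 candidates (11245 for Il2). For Ifng they were Ffar2 (0.97), Il21 (0.96), Car5b (0.96), S100a4 (0.95) and Gnptab (0.95). Il21 had Car5b (0.97), Gng3 (0.97), Gcg (0.96), Ifng (0.96) and Il10 (0.96). Gcg (0.98), Angptl2 (0.96), Il21 (0.96), Gng3 (0.95) and Itgb8 (0.94) led for Il10. Gcg, the preproglucagon gene, was 46.4, 115 and 59.6 FPKM in the combination, 6.45, 7.35 and 3.37 FPKM in polyIC, 5.32, 0.557 and 0.778 FPKM in antiPDL1 and 0.0603, 1.89 and 0.177 FPKM in control. Like Il10 it was highest in combination replicate 1. For Il2 the values were lower, with Zbtb6 (0.80), Prg2 (0.72), Mbtd1 (0.70), Zfp708 (0.68) and Ccr4 (0.68).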

How the data were processed

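RNA of CD45-positive liver cells was measured in 12 stranded mRNA libraries, 3 in each of 4 groups taken from the sample titles. The deposited values, read as FPKM since the table names no unit, were made by the authors with Cuffdiff on mm9, per the submitters' processing notes. The annotation, the Cuffdiff version and its scaling of libraries are not known here, as no source used gives them. Genes with 1 FPKM or more in at least 3 of 12 libraries were tested, 11978 of 24319 entries, leaving out 22 entries with a whole group at 0 while every library of another was at 5 FPKM or more (a failed estimate). The test was limma 3.58.1 (limma-trend, two-sided) in R 4.3.3 on log2(FPKM + 1), 1 fit over 12 libraries with group as the only term, and an adjusted p under 0.05, checked on simulated data. Fold changes on that scale understate those of low genes. Depth is relative only, from 2719 low genes and 66 library pairs, so no counting interval is given. For Il2 the SE came from its own spread within groups.

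The members and lists were chosen with earlier results of these data known. The genes named were all receptors, up to 4 of each pathway list with the largest change among those that passed between combination and control, 9 defining markers, and the 5 genes most correlated with each cytokine gene; some of the genes so named are not reported here. The marker and pathway lists are those described in the text, and their other counts for combination minus control were as follows: monocyte markers rose in 4 of 5 and neutrophil markers in 3 of 5, conventional dendritic cell markers fell in 2 of 5, plasmacytoid dendritic cell and sinusoidal endothelial markers fell in 5 of 5 each, and plasma cell markers had 1 higher and 1 lower of 4. The neutrophil count came to 0 without control replicate 0, control replicate 1 or combination replicate 2 and to 1 without combination replicate 0 or 1, that of conventional dendritic cells to 1 in 7 of 12 such cases and without both set-apart libraries, and that of plasmacytoid dendritic cells to 3 without combination replicate 1. Of the CD8 markers 2 of 2 rose and of the CD4 markers 1 of 2. Over all genes 13.1% rose and 16.3% fell. Other settings tried were no filter, a mean of at least 5 FPKM, a pseudocount of 0.1, quantile normalization, median-of-ratios rescaling, a replicate block, fits of only the groups compared, other T cell markers and leaving out each library. Python 3.11.15, numpy 2.4.6, pandas 2.3.3 and matplotlib 3.10.9 prepared tables and figures. Promoter windows are RefSeq's on GRCm38.p6, matched by symbol for 3 of 4 genes.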

Additional observations from a re-analysis of the deposited data

How the results depend on the processing

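The direction of Ifng, Il21 and Il10 with the combination held under every alternative run, with log2 changes against control of 2.90 to 3.41, 3.48 to 4.08 and 3.43 to 4.28 with 1 library left out. Scale mattered for Il21: with a pseudocount of 0.1 it was 5.32 against control, 3.05 against polyIC, 3.17 against antiPDL1, 0.91 for the interaction, 3.03 relative to T cell markers, and 2.26 for polyIC minus control (adjusted p = 0.0273 in limma). Il2 then had 0.84 for antiPDL1 minus control, -0.85 and -1.23 for combination minus polyIC and minus antiPDL1 and -1.69 for the interaction. Ifng in polyIC minus control ran from 0.93 to 1.41 with 1 library out, was 1.25 (adjusted p = 0.0382) after quantile normalization and 1.39 without control replicate 2 and antiPDL1 replicate 2. In antiPDL1 minus control it ran from 0.94 to 1.51, and was 1.71 without both. Il21 in polyIC minus control ran from 0.93 to 1.28, and had 1.13 (adjusted p = 0.0473) with only those groups fitted. The near-zero polyIC minus antiPDL1 change turned sign for Ifng (-0.32 to 0.22 with 1 library out, 0.0725 by quantile normalization and 0.0013 by median-of-ratios rescaling) and Il21 (-0.13 to 0.31, and -0.032 by quantile normalization), as did antiPDL1 minus control for Il10 (-0.0311 to 0.91). The Ifng interaction was 0.26 without both libraries. Relative to CD8 markers combination minus control was 0.34 for Ifng and 0.92 for Il21, and relative to Cd4 1.91 for Ifng, 2.49 for Il21, 2.60 for Il10 and -1.38 for Il2. That Il2 value mainly mirrors the rise of Cd4 itself, by 1.24. Relative to T cell markers Il10 ran from 0.83 to 2.05 with 1 library out. Of 49 calls between combination and control chosen for naming, 38 kept their call in every one of the 20 settings run and 11 lost it in some. Il2ra ran from -0.5516 to 0.0796 with 1 library out and was 0.0796 without both, and Zbtb6 and Zfp708 were 0.03 and 0.17 by quantile normalization, each turned from negative.

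Counts of genes called moved far more. For polyIC minus control 435 became 209 with a mean of 5 FPKM, 794 by quantile normalization and 2898 (1224 higher, 1674 lower) without both set-apart libraries, and ran from 42 to 1871 with 1 out. For antiPDL1 minus control 32 became 20 with the smaller pseudocount, 139 with no filter, 5 at the mean filter, 0 with only those groups fitted and 3378 without both (1 to 2087). For polyIC minus antiPDL1 18 became 10, 0 at the mean filter, 0 with only those groups and 937 without both (1 to 338). For combination minus control 3524 became 1968 (1118 higher, 850 lower) at the mean filter (1666 to 4499). Combination minus polyIC had 149, and 342 with the smaller pseudocount, 23 with no filter, 75 at the mean filter, 3 by quantile normalization, 1353 with only those groups and 1104 without both (0 to 534). Combination minus antiPDL1 had 15, and 31 with no filter, 6 at the mean filter, 0 with only those groups and 87 without both (0 to 331). The interaction had 2, and 0 with the smaller pseudocount, 0 at the mean filter and 5 without both (0 to 5). Receptor calls were 2 with only the groups compared (1 to 5), and calls of other cytokines 3 at the mean filter, 3 without both and 3 with only those groups (3 to 5). Interferon gamma targets ran from 3 to 13. The cause of these moves was not tested.

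The labels do not say whether libraries that share a replicate number were paired. Their deviations from group means had r from -0.29 to 0.32. Libraries with unlike numbers were not set beside them, so these values cannot decide the question. With a replicate block 31 genes were called for polyIC minus antiPDL1, 2 for combination minus polyIC and 1 for combination minus antiPDL1, and no call of a cytokine gene changed. The calls of Cd4 and Tnfrsf4 against polyIC were lost under it (adjusted p = 0.0727 and 0.0815 in limma). With relative depths of 0.471 to 1 and no read counts, differences in Il2 at under 2 FPKM were not resolved.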

Other observations

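The neighbours of the cytokine genes, by the order of protein-coding genes in RefSeq GRCm38.p6, mostly stayed low. Il22 and Iltifb, the genes beside Ifng on chromosome 10 that encode IL-22 and its close relative, were listed at 0 in all 12 libraries. On the other side Dyrk2, a protein kinase gene, was 6.83 ± 1.09 FPKM in the combination and 17.1 ± 4.74 FPKM in control (SD, n = 3 each), and fell by 1.18 (SE 0.28, adjusted p = 0.0102 in limma). The IL-10 family genes Il19, Il20 and Il24 beside Il10 on chromosome 1 averaged under 0.1 FPKM in every group, and Mapkapk2, on the other side, was 163 ± 37.7 FPKM in the combination and 122 ± 9.64 FPKM in control (log2 change 0.39, adjusted p = 0.258). On chromosome 3, Il2 and Il21 stood at 0.482 and 18.0 FPKM in the combination. Cetn4, directly beside Il21, was 1.18 ± 0.247 FPKM in the combination and 0.433 ± 0.0436 FPKM in control, and was not tested. Beyond Cetn4, Bbs12, a gene of cilium assembly, was 2.01 ± 0.308 FPKM in the combination and 1.00 ± 0.0790 FPKM in control. It rose by 0.58 (SE 0.15, adjusted p = 0.0152 in limma), a call lost without combination replicate 1 (adjusted p = 0.0731). Adad1, beside Il2, averaged under 0.1 FPKM in every group. All neighbours were picked by position, with the nearest 3 genes on each side examined.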
